A study of Mus musculus with 6 samples.

Results

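The regions described here are stretches of open chromatin that lay inside protein-coding genes, away from both gene ends, and that were listed in every usable library of a mouse heart cushion cell line. They were selected on presence in the peak lists and on position. Autosomal peaks of 5 lists were merged where they overlapped by at least 1 bp, and a merged region was kept when all 5 lists held a peak in it, when it overlapped the body of a protein-coding gene, and when it lay more than 1 kb from every protein-coding gene end. Of 48279 merged regions, 12139 were listed in all 5 libraries. Of these, 6788 lay at a gene end, 2271 lay outside genes, and 3080 lay inside gene bodies and are the regions of this account. They made up 17% of the 18103 merged regions inside gene bodies.

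The cells were atrioventricular cushion mesenchymal cells, immortalised and carrying the H-2Kb-tsA58 transgene, which encodes a temperature-sensitive SV40 large T antigen under the H-2Kb promoter. All groups shared this line at passage 6, in medium with serum, and each library was made by ATAC-seq from 54000 cells. Normal-glucose cells were kept in 5.5 mM glucose and high-glucose cells in 25 mM glucose for 48 h, with 3 libraries each. Autosomal peaks numbered 23897, 52 and 39694 in normal-glucose replicates 1, 2 and 3, and 21807, 24637 and 22222 in the high-glucose replicates. The 52 peaks of normal-glucose replicate 2 took no part in choosing regions, so the values below compare 2 normal-glucose with 3 high-glucose libraries. The labels do not say whether replicates were separate cultures, so a p-value here reflects only how far these libraries spread, technically or otherwise. The lists give no read counts, so depth is unknown. Values for 5 libraries are given in the order normal-glucose replicates 1 and 3, then high-glucose replicates 1, 2 and 3.

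In ATAC-seq a transposase inserts adapters into DNA that nucleosomes do not protect, and a peak marks a place where many insertions fell. Open sites at gene starts mark promoters, where transcription begins. Open sites inside genes include further promoters, from which shorter transcripts of the same gene start, and enhancers, to which transcription factors bind and from which they act on a promoter at a distance. In cushion mesenchyme, the tissue from which heart valves and septa form, genes of cell adhesion, extracellular matrix and TGF-beta signalling are known for their part in migration and remodelling.

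The sequences below are shown because 23.4% of the regions that could be placed against listed transcription starts lay on a start inside their own gene. They are RefSeq windows on GRCm38.p6, in mm10 coordinates, from 250 bases before to 50 bases after an internal start that a shared region covered. The 8 are the strongest regions of the named genes whose window held a searched motif, and each is written 5′ to 3′ on the strand of its gene. Capitals mark motif matches on either strand. The motifs searched were TGACTCA with its variant TGAGTCA for AP-1, TGACGTCA for CREB, CCGGAAA with its variant CCGGAAG for ETS, GGGCGG for the SP/KLF family, GCGCATGC for NRF1, GGAATG for TEAD factors and TGTGGT for RUNX factors. For the factor NFY the forms searched were CCAATCA, then the form CCAATCG, then the form CCAATGA and lastly the form CCAATGG. None of these motifs contains another.
Scoc, chr8:83442613-83442912, minus strand: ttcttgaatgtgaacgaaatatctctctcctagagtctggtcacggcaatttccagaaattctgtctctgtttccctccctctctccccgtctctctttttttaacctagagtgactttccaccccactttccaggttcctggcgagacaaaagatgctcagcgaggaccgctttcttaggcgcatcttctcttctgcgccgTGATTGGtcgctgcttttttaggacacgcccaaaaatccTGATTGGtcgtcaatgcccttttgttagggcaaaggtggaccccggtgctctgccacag
Acer3, chr7:98309493-98309792, minus strand: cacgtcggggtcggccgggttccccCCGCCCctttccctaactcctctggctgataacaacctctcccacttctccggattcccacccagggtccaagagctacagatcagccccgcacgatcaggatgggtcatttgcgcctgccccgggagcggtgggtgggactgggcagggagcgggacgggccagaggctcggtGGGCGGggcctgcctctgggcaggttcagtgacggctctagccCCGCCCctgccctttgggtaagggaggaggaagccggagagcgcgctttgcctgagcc
Cnnm2, chr19:46761359-46761658, plus strand: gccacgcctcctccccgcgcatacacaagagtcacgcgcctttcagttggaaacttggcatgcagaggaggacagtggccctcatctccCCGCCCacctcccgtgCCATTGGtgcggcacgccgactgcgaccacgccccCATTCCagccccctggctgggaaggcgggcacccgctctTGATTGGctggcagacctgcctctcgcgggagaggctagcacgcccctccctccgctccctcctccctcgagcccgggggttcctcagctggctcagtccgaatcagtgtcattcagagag
Por, chr5:135688895-135689194, plus strand: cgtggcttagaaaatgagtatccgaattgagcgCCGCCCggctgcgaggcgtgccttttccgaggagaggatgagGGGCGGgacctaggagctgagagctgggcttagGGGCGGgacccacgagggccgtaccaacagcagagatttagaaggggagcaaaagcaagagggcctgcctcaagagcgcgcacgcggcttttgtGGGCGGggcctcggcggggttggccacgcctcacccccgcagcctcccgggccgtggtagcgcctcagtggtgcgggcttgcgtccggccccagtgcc
Hdac4, chr1:92180292-92180591, minus strand: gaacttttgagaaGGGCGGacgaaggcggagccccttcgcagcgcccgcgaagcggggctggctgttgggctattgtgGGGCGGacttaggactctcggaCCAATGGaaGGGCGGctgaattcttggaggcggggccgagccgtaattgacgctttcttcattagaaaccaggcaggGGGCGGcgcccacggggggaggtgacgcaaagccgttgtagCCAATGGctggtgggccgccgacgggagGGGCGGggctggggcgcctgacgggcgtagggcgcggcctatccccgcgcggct
Hif1a, chr12:73907617-73907916, plus strand: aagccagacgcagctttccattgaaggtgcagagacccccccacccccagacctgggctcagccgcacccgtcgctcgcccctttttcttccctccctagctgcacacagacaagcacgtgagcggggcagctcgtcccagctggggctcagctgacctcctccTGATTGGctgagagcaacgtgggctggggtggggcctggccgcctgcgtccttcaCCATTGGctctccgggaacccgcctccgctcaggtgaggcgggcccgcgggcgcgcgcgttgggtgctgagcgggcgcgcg
Palld, chr8:61591090-61591389, minus strand: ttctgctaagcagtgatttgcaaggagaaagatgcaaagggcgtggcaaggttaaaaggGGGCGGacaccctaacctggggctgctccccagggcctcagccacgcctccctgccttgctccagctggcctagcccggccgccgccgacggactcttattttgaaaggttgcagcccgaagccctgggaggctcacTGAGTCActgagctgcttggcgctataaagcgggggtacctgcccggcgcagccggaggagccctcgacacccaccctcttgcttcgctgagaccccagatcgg
Hk1, chr10:62340372-62340671, minus strand: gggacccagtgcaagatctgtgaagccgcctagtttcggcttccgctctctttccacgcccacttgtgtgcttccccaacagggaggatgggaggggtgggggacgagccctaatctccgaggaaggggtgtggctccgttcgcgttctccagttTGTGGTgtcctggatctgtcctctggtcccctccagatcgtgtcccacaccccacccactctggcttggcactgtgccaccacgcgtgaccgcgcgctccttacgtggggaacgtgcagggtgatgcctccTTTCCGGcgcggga

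Scoc, a short coiled-coil protein of autophagy, has 2 NFY matches in its window, 48 and 9 bases before the start. Hdac4, a class IIa histone deacetylase, has 5 SP/KLF and 2 NFY matches. Por, the reductase that passes electrons to cytochromes P450, has 4 SP/KLF matches. Acer3, an alkaline ceramidase, has 3 SP/KLF matches, and Cnnm2, a membrane protein of magnesium transport, has 2 NFY, 1 SP/KLF and 1 TEAD match. Hif1a, the oxygen-regulated subunit of hypoxia-inducible factor, has 2 NFY matches and no SP/KLF match. Palld, an actin-associated scaffold, is the only 1 of the 8 with an AP-1 match, and Hk1, a hexokinase, the only 1 with ETS and RUNX matches. Windows of 7 of these genes had a GC content of 63% to 69.3%, and that of Scoc had 50%. A match is a run of letters and was not tested as a binding site.

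Such letters were common at internal starts on a shared region and less so at internal starts without a peak. Of 714 windows at internal starts on a shared region, 73.5% held SP/KLF letters, against 27.1% of 2643 internal starts with no peak in any of the 5 lists and 47% of all 20063 listed starts. NFY letters stood in 26.5%, 12.9% and 19.3% of the same sets. For ETS letters the shares were 23.5%, 5.3% and 15%. TEAD letters ran the other way, with 10.2%, 16.9% and 13.4%, as did RUNX letters, with 11.3%, 17.6% and 14.8%. AP-1 letters differed little, with 5.18%, 5.3% and 4.7%. CREB letters stood in 2.8%, 1.02% and 2.3%, and NRF1 letters in 5.46%, 1.1% and 3.55%. Base composition moved with these shares: the median GC content was 64% for internal starts on a shared region, 52% for those without a peak and 57% for all listed starts, and its part in the shares was not tested. The ratio of observed to expected CpG dinucleotides, high in CpG islands, was 0.786 at internal starts on a shared region and 0.296 at those without a peak. Starts near a gene end gave similar values, with 63.7% GC and a CpG ratio of 0.824 on a shared region, and 51% and 0.292 without a peak.

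The regions were short, and the libraries placed them on nearly the same bases, much as for other shared regions. Their merged width had a median of 279 bp and ranged from 116 to 877 bp. The summits of the 5 libraries, where each peak was highest, spanned a median of 67 bp within a region, against 58 bp at gene ends and 70 bp outside genes. In 72.1% of regions they lay within 100 bp of each other, against 69.4% of shared gene-end regions and 69.7% of shared regions outside genes. In 88.4% of regions every list held a single peak, against 77.2% at gene ends and 90.3% outside genes, where the median width was 272 bp. The nearest gene end was a median of 13962 bp away, 57.7% of regions were over 10 kb and 19.1% over 50 kb from every gene end, and the farthest lay at 607759 bp. Just inside the distance threshold, 41 shared regions lay 1000 to 1100 bp from a gene end, with a median rank of 51.4 and a median width of 337 bp. Just outside it, 51 lay 900 to 1000 bp from one, with a median rank of 42.8 and a median width of 361 bp. Exons and introns were not annotated in the tables used here.

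Presence in all 5 lists chose the regions, so the following is a description. Inside gene bodies 8252 regions were in 1 list, 3054 in 2, 2006 in 3, 1711 in 4 and 3080 in all 5. Of those in 1 list, 61% came from normal-glucose replicate 3, the longest list. Of the 1711 just outside the rule, with 4 lists, high-glucose replicates 1 and 3 were each the missing library in 528, normal-glucose replicate 1 in 356, high-glucose replicate 2 in 279 and normal-glucose replicate 3 in 20. Their median fold enrichment over background, the authors' value for each peak, was 5.95, 7.52, 5.71, 5.93 and 5.53 in the 5 libraries. For the regions in all 5 lists it was 7.67, 10.4, 7.39, 8.19 and 7.44. The regions in all 5 lists were thus the stronger set in every library, as a rule on presence selects.

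Within the shared set, the position of a region along its gene depended on whether a transcription start lay on it. RefSeq start windows were at hand for the host genes of 2498 of the 3080 regions. Of these, 585 lay on a start of their own host gene (23.4%, Wilson 95% interval 21.8% to 25.1%), 36 lay on the start of a long noncoding RNA (1.44%), and 1877 had no listed start on them (75.1%). Of the last, 203 lay within 1 kb of a listed start of any gene. Regions on an internal start leaned toward the front of the gene, with a median position at 21.2% of its length and 82.1% in the first 50% (n = 577 with a known strand). Regions with no start on them had a median position of 46% and 53.6% in the first 50% (n = 1861). Regions inside genes found in 1 list lay at a median of 46.5%, with 53.5% in the first 50% (n = 6391). The split itself used the position of starts, so the forward lean is given without a test.

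**Figure D1:**
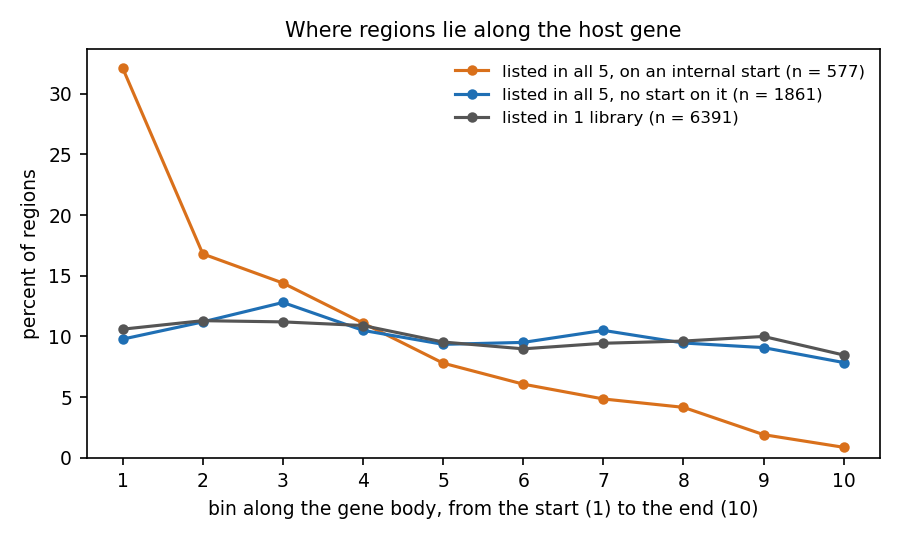
Percent of regions in 10 equal bins along the host gene, from its start to its end, for shared regions on an internal start (n = 577), shared regions with no start on them (n = 1861) and regions in 1 list (n = 6391). The line for regions on an internal start falls from 32.1% in the first bin to 0.867% in the last, while the other lines stay near 10% throughout.

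Regions on an internal start were nearly as strong as those at gene ends, and those with no start on them were as weak as those outside genes. Strength is given as a rank, the percentile of a region's strongest peak by the authors' −log10 p among the 12139 shared autosomal regions of the same library, so that all libraries rank the same set. The median rank of regions on an internal start was 56.3, 57.6, 56.9, 58.7 and 57.6 in the 5 libraries. Regions with no start on them had 38.8, 36.6, 34.9, 33.4 and 32.1. All 5 values of the first set stood above all 5 of the second. The mean within-library difference was 22.3 (higher in 5 of 5 libraries, exact sign-flip permutation test, two-sided p = 0.0625, the smallest that 5 libraries allow). Shared gene-end regions had median ranks of 59.5, 60.9, 61.8, 63.3 and 63.7, and regions on an internal start lay below them in 5 of 5 libraries by a mean of 4.4 (exact p = 0.0625). Regions outside genes had 38.2, 35.7, 34.7, 32.7 and 31.1, each within 1 of the value for gene-body regions with no start in the same library.

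**Figure D2:**
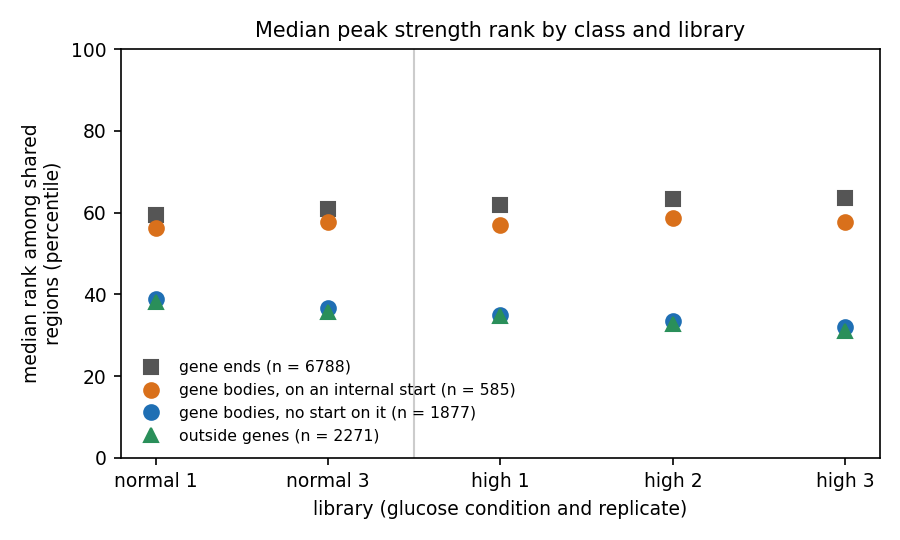
Median rank (percentile among 12139 shared regions) in each of the 5 libraries for shared regions at gene ends, on internal starts, in gene bodies with no start on them, and outside genes. Each point is 1 library, the grey line separates normal from high glucose, and the upper pair of classes stays above 56 while the lower pair stays below 39.

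Taking all 3080 regions, the median rank was 41.6, 40.4, 38.8, 38.9 and 36.6, below that of gene-end regions by a mean of 22.6 (lower in 5 of 5 libraries, exact sign-flip permutation test, two-sided p = 0.0625). Median peak widths in the regions were 180, 234, 182, 189 and 168 bp, and a peak in them was narrower than at gene ends by a mean of 51.6 bp (5 of 5 libraries, exact p = 0.0625). Within gene bodies the peaks on an internal start were wider than those with no start on them by 27, 62, 41, 53 and 59 bp in the 5 libraries, a mean of 48.4 bp (exact p = 0.0625). A region counted as on a start only if it covered one, so a wider region entered that set more readily. Width thus helped to form these sets, and the p-value cannot be read apart from that. Whether this also bears on their difference in rank was not tested. The 36 regions on a noncoding RNA start stood between, with median ranks of 46.5 to 52.5. Regions with no start on them but within 1 kb of one had a median rank of 40.6 over the libraries, and those farther away 34.5. Conversely, of 3708 listed starts inside gene bodies, 19.3% lay on a shared region and 71.3% had no peak in any of the 5 lists, and of 16377 starts near gene ends, 32.6% and 55.7%.

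The strongest regions, ranked by the library in which each was weakest, were led by a site in Chl1, a cell adhesion molecule of the L1 family. It lay at chr6:103649055-103649292, 83746 bp from the gene end, with no start on it. Its fold enrichment was 38.5, 40.6, 41.6, 40.6 and 39.1, a narrow range across conditions, and its rank was 100 in each library. The next was in Usp34, a deubiquitinase, with fold enrichments of 24.5, 27.4, 25, 29.2 and 23.5, well under those in Chl1. Iffo2, an intermediate filament family gene, followed with 20.1, 22.3, 22.5, 25.4 and 23.4. The Iffo2 gene held 3 further regions, whose lowest ranks ran from 1.78 to 33.7, so strong and weak sites stood in the same gene. Stard13, a GTPase-activating protein, had its strongest region on a noncoding RNA start, with ranks of 98.2, 98.8, 99.3, 99.7 and 98.8. Its other 6 regions ranked between 0.667 and 66.1 in any library. No filter for places prone to artefact signal was applied to the peak lists here. Whether any of the strongest sites is such a place was not tested.

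Scoc, Acer3, Cnnm2 and Por, whose sequences are shown above, were also among the 12 strongest, each on an internal start. The Scoc region had ranks of 99.2, 99.4, 99.7, 99.4 and 99.8, and the Por region had 97.7, 98.3, 99.3, 99.7 and 98.7. Neither spread by more than 2 percentile points across the 5 libraries. The remaining ones lay in Carns1, which makes carnosine, Ssc4d, a scavenger receptor family gene, Tiam1, a Rac exchange factor, and Camk1d, a calmodulin-dependent kinase. In Camk1d the region was only 160 bp wide and 85785 bp from a gene end. In Tiam1 it was 679 bp wide and 1214 bp from one.

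The 3080 regions fell in 2341 of 20665 autosomal protein-coding genes (11.3%), 28 of them in 2 overlapping genes at once. Most of these genes, 1809, held 1 region, 375 held 2, 104 held 3 and 53 held 4 or more. Of the genes with a region, 38.6% also had a shared region at a gene end, close to the 36.3% of all genes. Long genes held regions more often. The median length of genes with a region was 64385 bp, against 17491 bp for all. The share of genes with a region went from 0% in the shortest of 10 equal length classes to 36.7% in the longest. The low end is set in part by the rule, since a region must lie over 1 kb from every gene end. A gene of 948 bp, the median of the shortest class, cannot hold one, and other short genes leave little room. Per 100 kb, however, genes of the longest class held 0.214 regions, fewer than the 0.517 of genes in the fifth class.

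**Figure D3:**
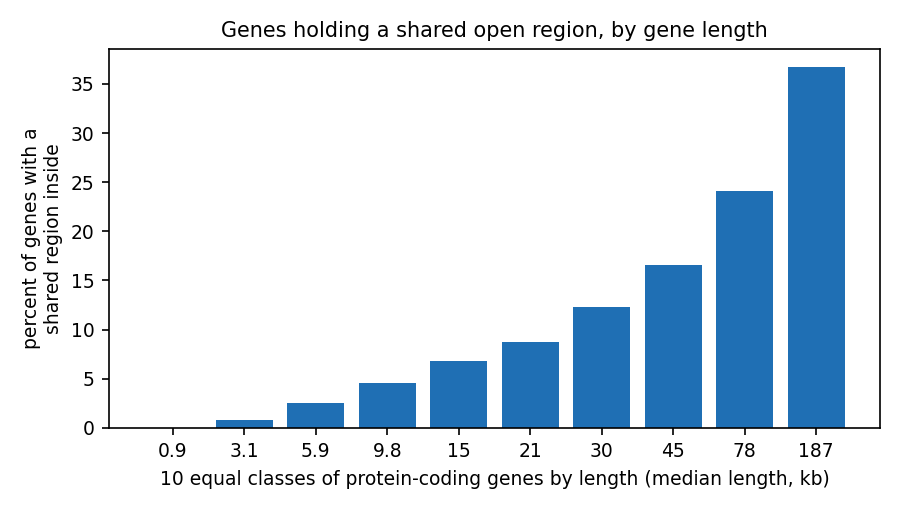
Percent of autosomal protein-coding genes that held a shared region inside, in 10 equal classes of gene length with the median length of each class in kb on the x axis. The bars rise from 0% to 36.7%, and genes too short to hold a place over 1 kb from both ends cannot hold a region.

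Gse1, a subunit of chromatin-repressing complexes, held 8 regions, Stard13 and Vps13d, a lipid transfer protein, 7 each, and Tns1, an adhesion adaptor, 6. By the library in which each was weakest, the 8 in Gse1 ranked from 1.22 to 39.6. The region at the upper end of that range ranked 48.7, 39.6, 48.2, 56 and 40.4. Another Gse1 region ranked 79, 77.9, 60.7, 59.7 and 38, below it only in high-glucose replicate 3. Prkag2, a regulatory subunit of AMP-activated protein kinase, held 5, of which 1 on an internal start ranked 86.1, 40.5, 70.6, 90.8 and 84.4. Palld, Dst, Plec, Shroom3, Sgms1, Pakap and Cyb5r3 also held 5 each. Per length the order differed. Cyb5r3, a cytochrome b5 reductase, held 21.8 regions per 100 kb in a gene of 22946 bp, and its strongest region ranked 97.9, 95.2, 92.9, 83.6 and 78.5. Lmna, which encodes nuclear lamins A and C, held 13.9 per 100 kb, Plec, a cytolinker, 8.28, Hdac7, a class IIa histone deacetylase, 7.72, Ahnak, a large scaffold protein, 4.56, and Iffo2 4.45. Dst and Plec, both of the plakin family, and Lmna and Iffo2 encode parts of or links to the cytoskeleton and nuclear lamina. That grouping was noticed after the genes were listed.

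Genes of focal adhesions and the actin cytoskeleton held regions most often among 20 gene lists. Of 41 such genes 29 held at least 1 (70.7%), 57 regions in all, against 24.4% of genes when each is replaced by the average of all genes in its length class. This is a description of the lists, with no test. The tensins, which link integrins to actin, had the most: Tns1 held 6 regions and Tns3 4. Palld held 5 and Dlc1, a GTPase-activating protein of adhesions, 4. One region in Dlc1 was strong, with ranks of 98.8, 78.3, 97.1, 98.4 and 96.2, and the other 3 reached 45.9 at most. The Palld region on an internal start ranked 86.5, 85.5, 72.3, 67.8 and 77.3, above each of the other 4 in all 5 libraries. The genes that follow were named after their values were seen. Bcar1, an adhesion docking protein, held 3 regions, and the strongest, on an internal start, ranked 75.6, 92.3, 76, 66.7 and 92. Myo10, an unconventional myosin of filopodia, held 3. Of the integrin subunit genes on the list, Itga5, Itgav, Itgb5 and Itga11 held 1, 1, 2 and 1, and Itgb1 held none. Of these the Itgav region lay on an internal start and ranked 70.9, 73.3, 75.9, 79.3 and 83.5.

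Genes of TGF-beta and BMP signalling held regions in 16 of 38 cases (42.1%, against 20% for genes of like length). Among the receptors, Tgfbr1, Tgfbr2, Acvr1 and Bmpr1b held 1 each and Tgfbr3 held 2. Among the ligands, Tgfb1 and Bmp6 held 1 each. Of the latent TGF-beta binding proteins, which hold the ligand in the matrix, Ltbp1 and Ltbp2 held 2 each and Ltbp3 and Ltbp4 1 each. Smad3, which carries the signal to the nucleus, held 4 regions, and none ranked above 62.2 in any library. Smurf1, a ubiquitin ligase of the pathway, held 3, and its strongest ranked 80.7, 90.8, 84.1, 76.9 and 49.3. Such regions thus lay in some genes of each of these kinds, at mostly low to middling ranks. Others of the same kinds held none, among them the receptors Acvr1b, Acvr2a, Acvr2b, Acvrl1, Bmpr1a and Bmpr2. The same was true of the ligands Tgfb2, Tgfb3, Bmp2, Bmp4 and Bmp7, and of every listed Smad gene other than Smad3.

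**Figure D4:**
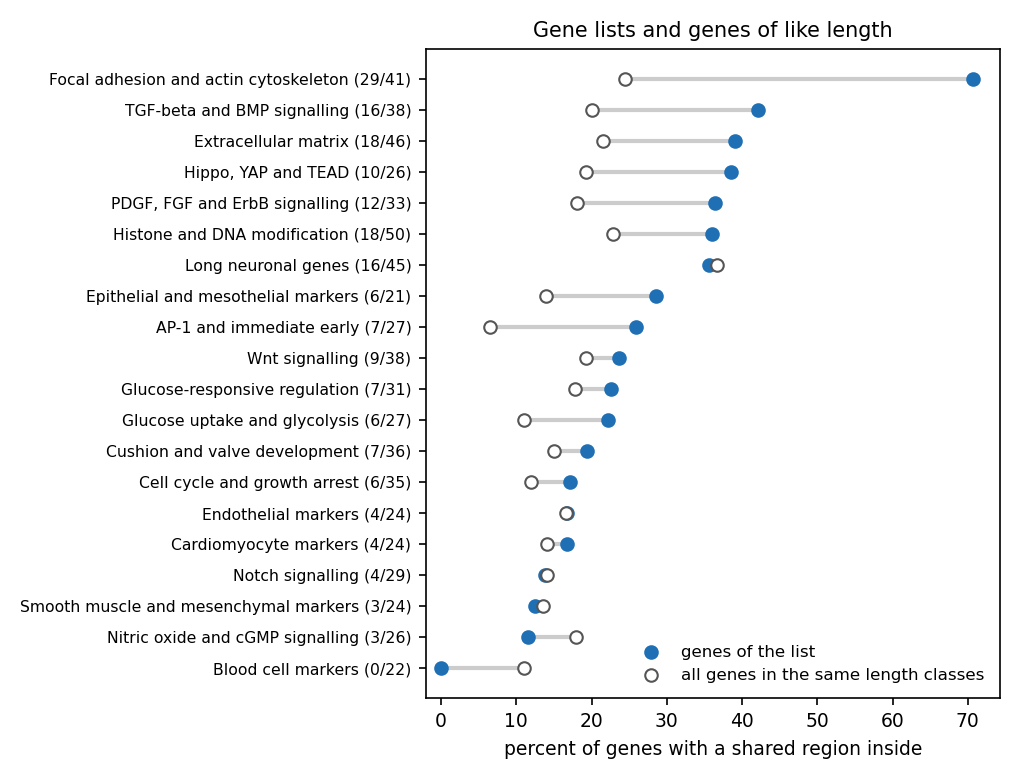
Percent of the genes of each of 20 lists that held a shared region inside (filled points, with numbers of genes in brackets), beside the mean percent of all genes in the same length classes (open points). Focal adhesion and actin genes stand at 70.7% against 24.4%, blood cell markers at 0% against 11%.

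Extracellular matrix genes held regions in 18 of 46 cases (39.1%, against 21.5%). The collagen genes Col4a2, Col12a1 and Col15a1 held 3 each, Col8a1 2 and Col6a2 1. Loxl1, an enzyme that crosslinks elastic fibres, held 3, and the metalloproteinase genes Mmp2, Adamts1 and Adamts9 2 each. Vcan and Has2, which supply versican and hyaluronan to cushion matrix, held 1 each. Ranks were low to middling. A Col4a2 region ranked 38.4, 50.6, 63.4, 71.7 and 80.3, with all 3 high-glucose values above both normal-glucose values. The Col12a1 region nearest the gene end ranked 38.2, 40.4, 26.9, 26 and 50.3, with overlap between the conditions.

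Hippo pathway genes held regions in 10 of 26 cases (38.5%, against 19.3%). The transcription factor genes Tead1, Tead3 and Tead4 held 3, 2 and 1, and Vgll4, a TEAD cofactor, 2. The stronger Tead3 region ranked 47.6, 64.6, 73.6, 51.5 and 80.6, and the stronger Vgll4 region 56.4, 62.6, 72.2, 76.9 and 64.6. In Vgll4 the high-glucose ranks all stood above the normal-glucose ranks, in Tead3 they did not. Genes of PDGF, FGF and ErbB signalling held regions in 12 of 33 cases (36.4%, against 18.1%). Nrg1, an ErbB ligand, held 4, Pdgfa, a PDGF ligand, 3, and Igf1r, the IGF receptor, 2. Insr, the insulin receptor, is named after its values were seen. Its region ranked 84.6, 96.9, 84.8, 83.9 and 92.4, at the top of that list.

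AP-1 and immediate early genes are short, and 7 of 27 held a region (25.9%, against 6.5% for genes of like length). Fosb, which encodes an AP-1 subunit, held a region 1280 bp from its 5′ end that ranked 74.7, 91.3, 91.6, 88.8 and 78.3. The other Fos, Jun and Atf genes on the list held none. Srf, the serum response factor, held 2, and Bach2, a repressor that binds related sites, 3. Histone and DNA modification genes held regions in 18 of 50 cases (36%, against 22.9%). Hdac7 held 4 and Hdac4 3. The Hdac4 region on the internal start shown above ranked 96.9, 97.5, 96.8, 98.9 and 98.9, while a region 13 bp beyond it ranked 27.7, 50.6, 54.7, 66.8 and 50.4. Dnmt1, the maintenance DNA methyltransferase, is named after its values were seen. Its region on an internal start ranked 94.4, 84.6, 97.8, 93.5 and 94.9.

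For genes of glucose uptake and glycolysis 6 of 27 held a region (22.2%, against 11%). Pfkfb3, which makes the activator of phosphofructokinase, held 3, and 2 of them were strong, at 95.7, 86.7, 95.9, 95.1 and 92 and at 96.9, 86.6, 90.4, 92.4 and 92.5. The third Pfkfb3 region lay on an internal start and ranked 23.8, 50.6, 29.1, 32.6 and 28.5, so here the region on a start was the weakest of the sites. The first of the strong regions lay 470 bp from a listed start, the second 13833 bp from one. Hk1 held a region on an internal start at 86.4, 79.1, 60.1, 80.6 and 75.3. Aldoa, an aldolase, held 1 on an internal start at 93.9, 57.4, 85.2, 85.8 and 78.2. Neither separated the conditions. Of the glucose-responsive list 7 of 31 genes held a region (22.6%, against 17.8%). The Hif1a region shown above ranked 81.9, 86.8, 77.7, 84.1 and 92.8, with overlap between conditions. The Srebf1 region, in the gene of a lipid synthesis factor, ranked 59.4, 49.3, 80.1, 63.3 and 69.4, with all high-glucose values above both normal-glucose values. Prkce, a protein kinase C, held 2, at ranks of 5.04 to 46.2.

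Genes of cushion and valve development held regions in 7 of 36 cases (19.4%, against 15%). The transcription factor genes Nfatc2, Gata4, Runx1 and Runx2 held 3, 2, 2 and 2, and Prrx1, Meis2 and Nfatc1 1 each. The stronger Runx1 region ranked 79.5, 83.2, 81.7, 90.6 and 62.6, and the Gata4 regions ranked between 6.22 and 55.6. Notch genes held regions in 4 of 29 cases (13.8%, against 14.1%), Wnt genes in 9 of 38 (23.7%, against 19.3%), cell cycle genes in 6 of 35 (17.1%, against 12%) and nitric oxide genes in 3 of 26 (11.5%, against 17.9%). Nos3, Notch1 and Txnip held none. Jarid2, a cofactor of Polycomb repression, held 2, with ranks of 15.1, 21.6, 23.9, 56.9 and 11 and of 59.7, 73.5, 57.8, 39.6 and 72.9. Neither Jarid2 region separated the conditions.

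Markers of other cell types held regions about as often as genes of like length or less often, apart from 1 list. No blood cell marker of 22 held one (0%, against 11%). Endothelial markers held them in 4 of 24 cases (16.7%, against 16.6%), namely Flt1, Vwf, Eng and Nfatc1, and cardiomyocyte markers in 4 of 24 (16.7%, against 14.1%), namely Ldb3, Myom1, Myom2 and Cacna1c. Eng also stands on the TGF-beta list and on the smooth muscle and mesenchymal list, and Nfatc1 on the cushion list. Smooth muscle and mesenchymal markers held regions in 3 of 24 cases (12.5%, against 13.6%), so regions inside its marker genes did not mark out the labelled cell type. At gene ends, 14 of 36 cushion genes (38.9%) and 8 of 24 smooth muscle and mesenchymal markers (33.3%) had a shared region, near the 36.3% of all genes. The counts were lower for epithelial and mesothelial (5 of 21), cardiomyocyte (3 of 24), endothelial (0 of 24) and blood cell markers (1 of 22). Inside gene bodies, epithelial and mesothelial markers held regions in 6 of 21 cases (28.6%, against 13.9%). The strongest of these was in Upk1b, a uroplakin, at 62.4, 39.6, 72.6, 64.9 and 55.2. The other host genes were Aldh1a1, Wt1, Lrrn4, Bnc2 and Cdh1. Of the epithelial genes on the list, Cdh1 held a region with ranks of 10.9 to 59, while Epcam, Krt8, Krt18, Krt19, Cldn4, Cldn7, Esrp1, Esrp2, Grhl2 and Ovol1 held none. Long neuronal genes, which are silent in most other tissues, held them in 16 of 45 (35.6%, against 36.7% for the longest length class). Their median length was 1.06e+06 bp, against 187486 bp in that class, so the 36.7% is not a value for genes of like length. Per 100 kb they held 0.044 regions, against 0.214 in that class and 0.31 over all genes.

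The comparison of glucose conditions asked whether the strength, width or number of peaks inside genes differed. The share of autosomal peaks inside gene bodies was 32.8%, 36.4%, 31.1%, 31.7% and 30.5%. Both normal-glucose libraries lay above all 3 high-glucose libraries, with means of 34.6% ± 2.56 (SD, n = 2) and 31.1% ± 0.627 (SD, n = 3). The difference of −3.55 percentage points gave p = 0.2 in a two-sided exact permutation test, the smallest that 2 against 3 libraries allow. It moved with list length: normal-glucose replicate 3 had the longest list and the highest share, the difference was −1.74 without that library, and with the lists cut to equal length it was −1.08. Median peak width in the regions was 207 ± 38.2 bp (SD, n = 2) in normal and 180 ± 10.7 bp (SD, n = 3) in high glucose, a difference of −27.3 bp within the spread of the normal-glucose pair (exact p = 0.6). Without normal-glucose replicate 3 it was −0.333 bp.

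Ranks of the gene-body regions were slightly lower in high glucose. The mean of the library medians was 41 ± 0.83 (SD, n = 2) in normal and 38.1 ± 1.32 (SD, n = 3) in high glucose, without overlap between libraries and with a difference of −2.96 (two-sided exact permutation p = 0.2, the smallest possible). Since ranks are taken among all shared regions, a fall in one class goes with a rise in another, and gene-end regions differed by +2.74 (exact p = 0.2). Regions with no start on them differed by −4.23 (exact p = 0.2), also without overlap between libraries. Shared regions outside genes went the same way without overlap, at 38.2 and 35.7 in normal and 34.7, 32.7 and 31.1 in high glucose. The lower ranks were therefore not particular to gene bodies. Regions on an internal start differed by +0.792 (exact p = 0.4), with overlap. The gap between regions on an internal start and regions with no start was 17.5, 21, 22, 25.3 and 25.5 in the 5 libraries. It was wider in each high-glucose library than in either normal-glucose library, by a mean of 5.02 (exact p = 0.2). In bulk libraries fewer open cells and less signal per cell cannot be told apart.

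Single regions were counted by whether their ranks overlapped between the conditions. All 3 high-glucose ranks lay above both normal-glucose ranks in 307 of 3080 regions (9.97%), against 11.9% of all 12139 shared regions. The reverse held in 434 (14.1%), against 11.5% of all shared regions. On internal starts the counts were 93 of 585 (15.9%) and 73 (12.5%), and among regions with no start on them 149 of 1877 (7.94%) and 285 (15.2%). Gene-end regions had 14% and 9.44%, and regions outside genes 8.15% and 14.1%. All of these shares lie within a few percentage points of the background, and no test was run on single regions. With lists of equal length the shares were 9.53% and 14.7% of 2739 regions, against 11.8% in each direction of 11150 shared regions.

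The widest separations in favour of high glucose were in Letmd1, Nfyc, Unkl, Zfp503, Hnrnpl and Rbms3. They were chosen for the gap and are given as values. The Letmd1 region, on an internal start of the gene of a mitochondrial membrane protein, ranked 27.1, 33.7, 80.4, 72.5 and 72.3. The Nfyc region, on an internal start in the gene of an NFY subunit, ranked 8.78, 22.1, 75.2, 57.7 and 75.1. In Rbms3, an RNA-binding protein gene, the region lay 436986 bp from the gene end and ranked 5.18, 16.6, 73.9, 50.1 and 56.9. In these 3 the conditions stood apart by over 30 percentile points. In the other direction stood Rmdn1, Tlk2, Macrod2, Vasp, Smad3 and Ccdc77. The Rmdn1 region, in the gene of a microtubule-associated protein, ranked 59.2, 69.5, 6.22, 10.7 and 3.56. The Vasp region, in the gene of an actin polymerisation factor, ranked 73.6, 76.8, 31.6, 34.2 and 36.3, and the second Smad3 region 51.1, 62.2, 4.82, 3.79 and 14.5.

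**Figure D5:**
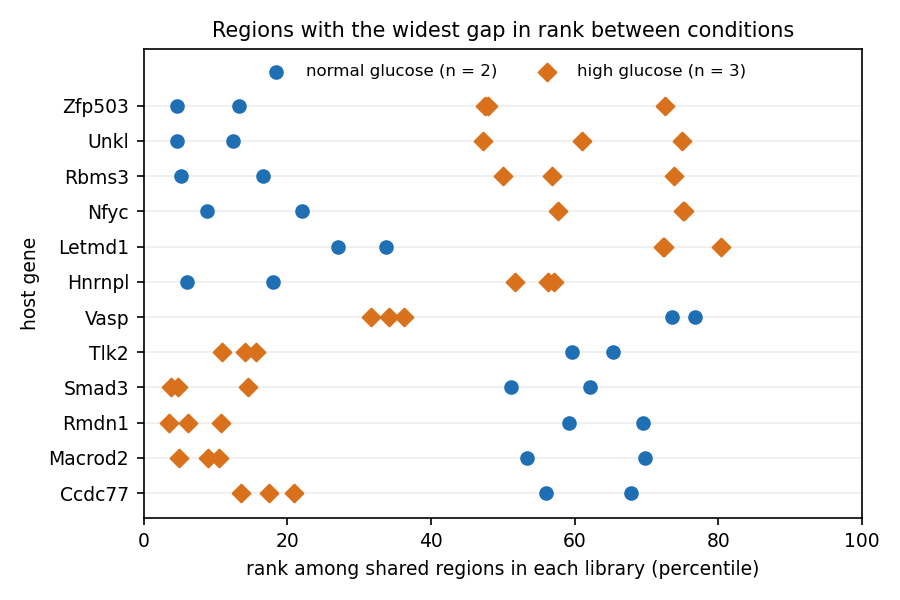
Rank among shared regions in each library for the 6 regions per direction with the widest gap between conditions, by host gene. Circles are the 2 normal-glucose and diamonds the 3 high-glucose libraries, and the regions were picked for this gap, as with Letmd1 at 27.1 and 33.7 against 72.3 to 80.4.

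Regions of the same gene did not always go the same way. Of 299 genes with a region whose high-glucose ranks were all higher, 11 held at least 2 such regions, and of 416 genes with one in the other direction 26 did, while 37 genes held both kinds. In Tns1, 3 of 6 regions had all high-glucose ranks higher, for example 0.243, 0.0247, 22.9, 8.33 and 19.3, and another had them lower, at 73.3, 70.6, 24, 50.6 and 46.9. In Pdgfa 2 neighbouring regions of 3 had high-glucose ranks above, at 40.3, 21.5, 69, 75.5 and 70.2 and at 32.7, 32, 65.6, 70.1 and 76.9. In Ccnd3, a cyclin D gene, 2 of 3 did, at 66.6, 60.6, 88.8, 88.3 and 67.6 and at 44.1, 43.4, 74, 75.6 and 48, and the third went the other way. In Srf both regions had them below, at 45, 61.9, 13.1, 31.6 and 12.6 and at 70, 67.4, 38.5, 61.7 and 57.2. In Igf1r both did too, at 77.5, 86, 57.4, 56.7 and 74.1 and at 27.3, 37.8, 26.6, 6.49 and 6.8, the last by less than 1 percentile point at its nearest values. Cyb5r3 and Pdzd2 had 3 of 5 and 3 of 4 regions below. Regions of 1 gene are not independent, and these genes were named after their values were seen.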

How the data were processed

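Each of the 6 ATAC-seq libraries came with a peak list of its own, and no pooled list was used. The submitters' processing notes name mm10 and, without roles, MACS2 2.1.0, Bowtie 1.0.0, cutadapt 1.0, Picard 1.90, SAMtools 0.1.19, FastQC and DiffBind 1.12.3. Whether reads were shifted is not stated in the sources used here. The authors' deposited columns hold the position and summit of a peak with its score, its fold enrichment (a ratio), and −log10 values of its p and q. The lowest −log10 q in the deposited lists was 1.3 to 1.34. The lists hold no counts, so depth is unknown, and a longer list holds weaker peaks. Intervals on shares of peaks or regions cover counting error only.

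The members and lists were chosen with earlier results of these data known. A library entered with at least 1000 peaks. Genes were 20665 autosomal protein-coding genes of RefSeq on GRCm38.p6, and start windows were listed for 16457 of them. No genome was used here, so a planned motif search around summits became a search of RefSeq start windows. Named genes were the 12 regions with the highest lowest rank, the 12 genes with most regions and 6 with most per 100 kb, the first 3 genes of each list by number of regions, 4 genes discussed for the series, and 6 regions per direction with the widest gap in rank. Gene models lacking a symbol were skipped. Other genes of a list, named by role, were chosen after their values were seen. A few selected genes are not reported here.

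Libraries were the units of all tests: exact permutation of 2 against 3 means, and exact sign flips over 5 within-library differences. Same-numbered libraries were compared as a block only as an alternative. Alternatives also covered thresholds, list length, distance, merging, ranking by fold, and left-out libraries. Calculations used SciPy 1.17.1, pandas 2.3.3 and numpy 2.4.6 in Python 3.11.15, with matplotlib 3.10.9 for figures. Region calls were tested on simulated lists, and bedtools 2.31.1 counted the same 3080 regions.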

Additional observations from a re-analysis of the deposited data

Results flagged for a closer look

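One signal stood outside the comparisons, in normal-glucose replicate 2, whose list of 52 autosomal peaks was not used to choose regions. Of these peaks 7 lay on the shared regions inside gene bodies (13.5%, exact 95% interval 5.59% to 25.8%), 35 on shared gene-end regions and 10 on shared regions outside genes. None lay elsewhere, which for 0 of 52 allows up to 6.85% at the upper exact limit. Host genes included Atp5d, Baiap2, Chl1, Hdac4, Iffo2 and Sfi1. In Chl1 the fold enrichment in that library was 8.16, against 38.5 to 41.6 in the other libraries, and in Hdac4 it was 6.35, on the internal start whose sequence is shown. Of the 7 regions, 6 ranked above 93 in each of the other 5 libraries, and that in Atp5d ranked 34.5 to 76.8. Why this list is short was not tested.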

How the results depend on the processing

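Of 82 values recomputed under other settings, 70 kept their direction or, for counts, stayed within 1.5 times. Another 11 counts moved by over 1.5 times and 1 value reversed. These few libraries allow no exact p below 0.0625, so no p-value could cross the usual significance threshold under any setting. Keeping direction did not mean keeping size, as the share and width differences below show. With all 6 libraries the difference in the share of peaks inside gene bodies turned to +3.51 percentage points (exact permutation p = 1), because the 52-peak list entered with 13.5%. The number of regions was 1725 at a −log10 q of at least 5 and 7 when all 6 lists had to hold a peak. Otherwise it ran from 2581 to 3612. Counts with non-overlapping ranks were 174 (high glucose above) and 274 (normal glucose above) at a −log10 q of at least 5, an alternative added after seeing the data, of 1725 regions (10.1% and 15.9%, against 12.2% and 12% of shared regions). Leaving out each library in turn, also added later, they were 444 to 733 (14.4% to 23.8%, against 17.7% to 27.8% of shared regions) and 618 to 1013 (20.1% to 32.9%, against 17.3% to 27.8%), with fewer libraries that have to separate.

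Leaving out each library in turn, the share difference ran from −5.35 to −1.74 (−1.08 with lists of equal length), the width difference from −54.3 to −0.333 bp and the rank difference from −3.54 to −2.19. Against gene-end regions the rank difference ran from −23.7 to −21.4 and the width difference from −57.2 to −49 bp. Pairing same-numbered libraries in a replicate block gave −3.85 percentage points for the share, −32 bp for width and −3.36 for rank (exact p of 0.5, 1 and 0.5). With 2 normal-glucose libraries their deviations mirror each other, so the correlations of same-numbered libraries (−0.063 and 0.068) cannot show whether the numbers pair the cultures, and 2 pairs allow no exact p below 0.5. For the 1877 regions with no start on them and a host gene with a listed start, the rank lay 26.7 below gene ends and the width 60.4 bp below.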
